A study of Saccharomyces cerevisiae with 27 samples.

Results

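The sir3 arp5 double deletion strain of budding yeast was set, gene by gene, against what the sir3 and arp5 single deletion strains would give if their changes simply added on a log scale. For each gene the log2 ratio of the double mutant over the wild type BY4741 was compared with the sum of the log2 ratios of sir3 and of arp5 over BY4741, each computed on FPKM + 1; FPKM is the number of fragments per kilobase of gene normalised to the library's mapped fragments. Genes entered when they were 300 bp or longer and reached 5 FPKM in any of the 4 genotypes, without SIR3 and ARP5, which left 6001 of 6664 genes in the table. The rule left out 461 genes under 300 bp and 200 longer genes under 5 FPKM in all 4 columns. At its edges, 12 genes of 300 bp were counted and 6 of 297 bp were not, the lowest top level counted was 5.01 FPKM and the highest not counted 4.99 FPKM.

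Sir3 is a structural protein of silent chromatin: with Sir2 and Sir4 it spreads over nucleosomes at the chromosome ends and at HML and HMR, the silent copies of the mating-type genes, and keeps them off. Arp5 is an actin-related subunit of INO80, an ATP-driven complex that moves nucleosomes and is found at many promoters. When a pair of mutations act on separate steps, their effects on a gene are often taken to add on a log scale; a double mutant that departs from the sum shows what geneticists call epistasis. When HML and HMR are both read in a haploid cell, it makes the a1 and alpha2 repressors together, which shut off the haploid-specific genes, while alpha2 alone shuts off the a-specific genes.

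Cells of all 4 genotypes shared the BY4741 background and grew in YPD, a rich glucose medium, into exponential phase; messenger RNA was sequenced with a TruSeq v2 kit, which does not keep the strand. The double mutant, sir3 deleted and arp5 deleted, had 1 library, labelled BIOO, and the sir3 mutant, the arp5 mutant and the wild type had 3 libraries each, of which 1 was labelled BIOO. Each genotype reached the deposited table as a single FPKM column, so no value below has a replicate, an SD or a test, and every difference is without a replicate check. The genotype of the double mutant and its library cannot be told apart. In bulk RNA, fewer cells with a transcript and less of it per cell cannot be told apart.

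The deletions were seen in the table. SIR3 was listed at 0 in the double mutant and had 0.0572 FPKM in sir3, 12.9 in arp5 and 10.04 in BY4741; ARP5 was listed at 0 in the double mutant and in arp5, with 31.4 FPKM in sir3 and 35.02 in BY4741. Median FPKM over the table was 34.8 in the double mutant, 34.9 in sir3, 35.01 in arp5 and 35.5 in BY4741, and read totals were not used here, so depth is unknown. Genes under 150 bp held 65.9% of all FPKM in the double mutant, against 45.6% in sir3, 46.4% in arp5 and 45.7% in BY4741. TAR1, which lies within the ribosomal DNA on the strand opposite to the large ribosomal RNA, had 7812 FPKM in the double mutant, against 366 in sir3, 588 in arp5 and 492 in BY4741. The part of these library differences in the results was not tested.

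Most genes lay near the sum. The difference, double mutant minus sum, had a median of 0.0061 (log2), with the middle of the genes between -0.42 and 0.49 and an SD over genes of 0.84. A gene was called above or below the sum when it lay more than 2-fold away. By that rule 618 genes (10.3%) were above and 408 (6.8%) below, and 4975 lay within. Past 4-fold there were 101 above and 81 below. FSH2 at 1.001 and GIP2 at -1.00003 were the genes called nearest to the limits, and YIR042C at 0.999 and ULI1 at -0.998 were the nearest that missed them. The calls of each strain over BY4741 give the scale: in the double mutant 944 genes (15.7%) were past 2-fold on the higher side and 591 (9.85%) on the lower, 93 (1.55%) and 105 (1.75%) in sir3, and 344 (5.73%) and 208 (3.47%) in arp5. Set against sir3 in place of BY4741, 770 genes (12.8%) of the double mutant were higher and 477 (7.95%) lower, and against arp5 679 (11.3%) were higher and 344 (5.73%) lower. Because the difference equals the double mutant less sir3 less arp5 plus BY4741, an error in any of the 4 columns moves it by the same amount.

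**Figure D1:**
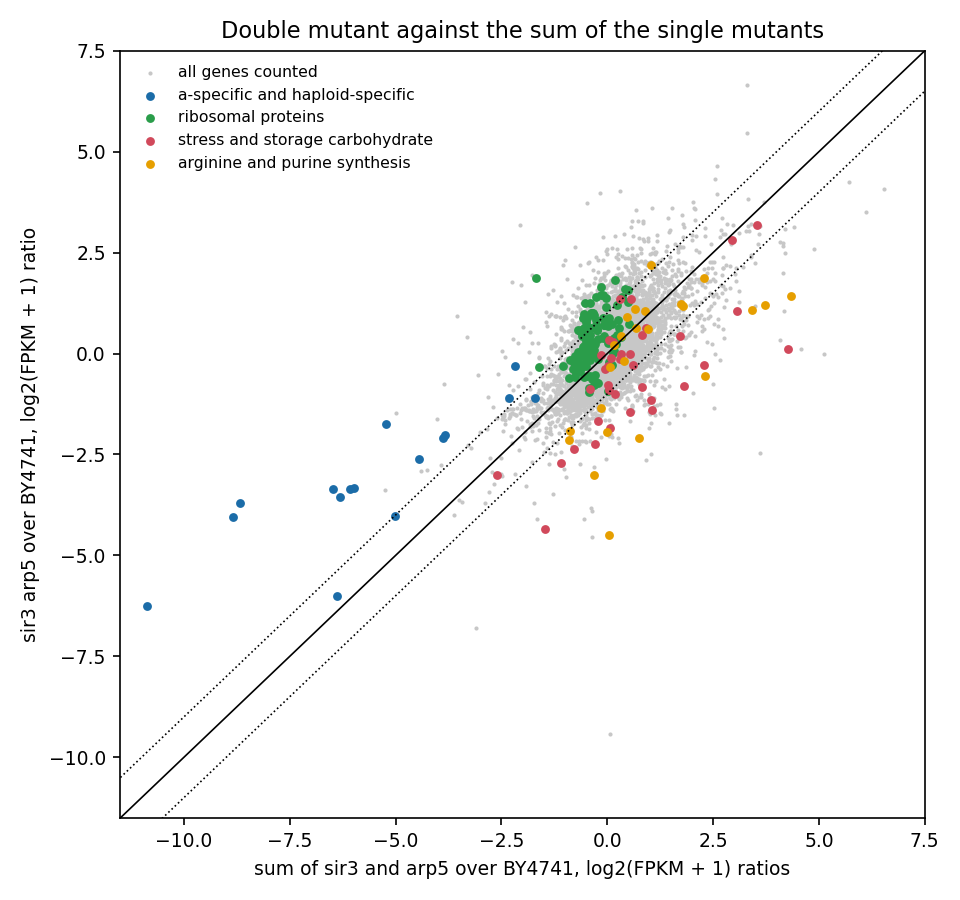
Each point is 1 of 6001 genes, with the sum of the sir3 and arp5 log2 ratios over BY4741 on the x axis and the log2 ratio of sir3 arp5 over BY4741 on the y axis; the solid line is equality and the dotted lines are 2-fold above and below. The a-specific and haploid-specific genes (blue) lie to the far left and above the line, ribosomal protein genes (green) mostly above it, and stress, storage carbohydrate, arginine and purine genes (red, orange) lie largely on or below it.

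A departure from the sum is described by its place among the possible outcomes. In 676 genes sir3 or arp5, or both, lay more than 2-fold from BY4741, and the double mutant's level was nearest to arp5 in 213 of them (31.5%), to the sum in 196 (29.0%), to sir3 in 181 (26.8%) and to BY4741 in 86 (12.7%). No outcome held for most genes, but the 4 levels were often close together. In 300 of the genes arp5 was higher and sir3 within 2-fold of BY4741, so arp5 could lie near the sum and sir3 near BY4741. There the double mutant was nearest to arp5 in 107, to the sum in 92, to sir3 in 65 and to BY4741 in 36. In 178 genes with arp5 lower and sir3 within 2-fold, these numbers were 71, 64, 19 and 24. Of 28 genes lower in both single mutants, 25 were above the sum and 0 below, and the medians over BY4741 were -2.18 in the double mutant, -2.43 in sir3 and -1.90 in arp5. Of 43 genes higher in both single mutants, 1 was above the sum and 26 below, with medians of 2.24 in the double mutant, 1.54 in sir3 and 1.69 in arp5. These classes were drawn from values that enter the difference with a minus sign, and sir3, arp5 and the double mutant share the BY4741 column, so the counts are a description only.

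Genes that mark the a mating type stood furthest above the sum, with the RNA of each already far lower in both single mutants than in BY4741. STE2 (YFL026W; chromosome VI, 82580 to 83875), the receptor for alpha-factor, had 4.67 FPKM in the double mutant, 5.87 in sir3, 13.5 in arp5 and 432 in BY4741. The double mutant was close to sir3, the lower of the single mutants, and 4.63 (log2) above the sum. BAR1, the secreted protease that degrades alpha-factor, had 7.10 FPKM in the double mutant, 4.15 in sir3, 6.72 in arp5 and 134 in BY4741, a difference of 4.78. STE6, the a-factor exporter, had 3.85 FPKM in the double mutant, 3.52 in sir3, 7.35 in arp5 and 48.0 in BY4741, a difference of 2.65. ASG7, an a-specific regulator of pheromone signalling, had 7.08 FPKM in the double mutant, 5.98 in sir3, 15.1 in arp5 and 48.4 in BY4741, a difference of 1.82. All 4 a-specific genes counted were above the sum, against 10.3% of all genes. Their median was -3.70 over BY4741 in the double mutant, -4.07 in sir3, -3.34 in arp5 and -7.41 for the sum; for 13 genes, among them STE2, BAR1 and STE6, the sum would call for an FPKM below 0, which no sample can have. Such a gene lies above the sum at any level in the double mutant, so its direction is no finding.

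The other a-specific genes were too short to be counted, and their values ran the same way. MFA1, which encodes the a-factor pheromone, had 56.04 FPKM in the double mutant, 85.7 in sir3, 1455 in arp5 and 50355 in BY4741. MFA2, the second a-factor gene, had 121 FPKM in the double mutant, 133 in sir3, 949 in arp5 and 28717 in BY4741. Both lay close to sir3 in the double mutant and well under arp5. AGA2, the binding subunit of a-agglutinin, differed from them: it had 54.3 FPKM in the double mutant, 10.05 in sir3, 93.9 in arp5 and 1318 in BY4741. It lay between the single mutants.

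Haploid-specific genes, which the a1 and alpha2 proteins repress together, showed the same shape, with the same floor. For FUS3, HO, GPA1 and NEJ1, 4 of the 12, the sum would call for an FPKM below 0, and FUS3 and STE5 reached 5 FPKM only in BY4741, so the counts describe the list and support no direction. Of 12 counted, 10 were above the sum and 0 below, with a median difference of 1.84 and medians over BY4741 of -2.72 in the double mutant, -3.11 in sir3, -2.01 in arp5 and -5.12 for the sum. The double mutant was nearest to sir3 for 7 of them, to arp5 for 3, to the sum for 1 and to BY4741 for 1. FUS3, the mating MAP kinase, had 3.50 FPKM in the double mutant, 0.824 in sir3, 3.59 in arp5 and 57.6 in BY4741, and its difference was 4.98, with a sign that the floor sets. GPA1, the alpha subunit of the pheromone G protein, had 6.19 FPKM in the double mutant, 4.49 in sir3, 9.82 in arp5 and 72.1 in BY4741, a difference of 3.14. STE4, its beta subunit, had 6.90 FPKM in the double mutant, 14.5 in sir3, 31.5 in arp5 and 127 in BY4741, a difference of 1.00, just past the limit. In STE4 the double mutant was lower than either single mutant.

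STE18, the gamma subunit of the same G protein, behaved otherwise. It had 7.03 FPKM in the double mutant, 43.9 in sir3, 70.2 in arp5 and 514 in BY4741, so that the double mutant stood -6.00 from BY4741 and the sum -6.37. It was the 1 haploid-specific gene nearest to the sum, 0.37 above it. HO, the endonuclease that starts mating-type switching, had 7.22 FPKM in the double mutant, 2.04 in sir3, 5.61 in arp5 and 26.4 in BY4741, a difference of 3.49. NEJ1, a haploid-specific factor of DNA end joining, had 2.55 FPKM in the double mutant, 2.50 in sir3, 5.33 in arp5 and 40.9 in BY4741, a difference of 2.75. FAR1, which halts the cell cycle on pheromone, had 12.7 FPKM in the double mutant, 12.9 in sir3, 18.4 in arp5 and 28.7 in BY4741, 0.60 above the sum. The FPKM of these genes are near the low end of the table, where the added 1 weighs most: with a pseudocount of 5 the median difference of the list was 1.43.

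Genes that pheromone induces through Ste12 were mixed. Of 12 counted, 5 were above the sum (41.7%) and 0 below, against 10.3% and 6.8% of all genes. FIG1, 1 of the 12, reached 5 FPKM only in BY4741, so it was counted through the column where it was high. The median difference was 0.53, or 0.18 without the genes on chromosomes III, XI and XII. FUS1, a membrane protein of cell fusion, had 9.51 FPKM in the double mutant, 2.40 in sir3, 5.37 in arp5 and 16.7 in BY4741. It was 3.11 above the sum, the double mutant being higher than both single mutants. AGA1, the anchor of a-agglutinin, had 10.9 FPKM in the double mutant, 7.05 in sir3, 9.35 in arp5 and 35.8 in BY4741, a difference of 2.39. PRM4, a pheromone-regulated membrane protein, sat on the sum: it had 9.85 FPKM in the double mutant, 34.7 in sir3, 11.9 in arp5 and 41.0 in BY4741, a difference of -0.0100.

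The mating-type cassettes carry near-identical sequences at MAT, HML and HMR, so their reads cannot be assigned with certainty. HMRA1, which encodes a1 at HMR, had 308 FPKM in the double mutant, 408 in sir3, 86.8 in arp5 and 330 in BY4741, 1.51 above the sum. HMRA2 had 161 FPKM in the double mutant, 381 in sir3, 94.5 in arp5 and 197 in BY4741, -0.19 from the sum. MATALPHA1, the alpha1 activator, had 6.31 FPKM in the double mutant, 4.32 in sir3, 7.14 in arp5 and 0.208 in BY4741, a difference of -2.29, the 3 mutants lying close together. HMLALPHA1 was under 5 FPKM throughout and was not counted: it had 2.77 FPKM in the double mutant, 2.38 in sir3 and 3.49 in arp5, and was listed at 0 in BY4741. HMLALPHA2 was listed at 0 in the double mutant and in BY4741. Of the 4 alpha-specific genes, 0 were above the sum and 1, STE3, the a-factor receptor, was below at -1.81. Over all genes 10.3% were above and 6.8% below. MF(ALPHA)1, the main alpha-factor gene, had 27.6 FPKM in the double mutant, 1.36 in sir3, 28.2 in arp5 and 2.11 in BY4741; the double mutant was at the arp5 level.

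**Figure D2:**
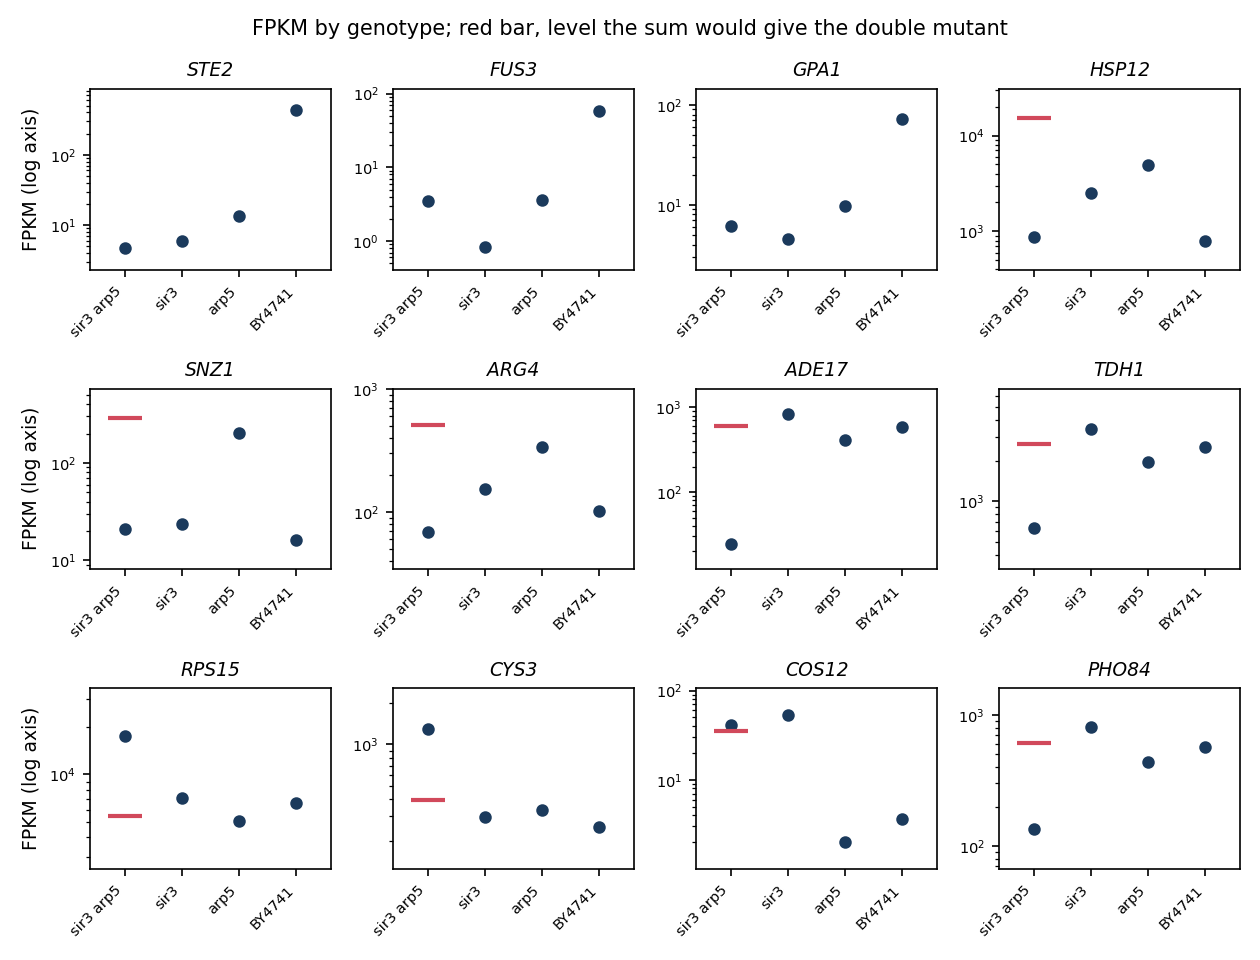
Deposited FPKM of 12 genes on a log axis in sir3 arp5, sir3, arp5 and BY4741, 1 value each (blue points), with the level that the sum of the single mutants would give the double mutant as a red bar; no bar is drawn where that level is below 0, in STE2, GPA1 and FUS3. In those 3 genes the double mutant lies near the single mutants and far under BY4741, and in HSP12, SNZ1, ARG4, ADE17, TDH1 and PHO84 it lies below the bar.

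Genes of the general stress response often lay below the sum. Of 20 counted, 9 were below and 1 above, against 6.8% and 10.3% of all genes, and their median difference was -0.85. The medians over BY4741 were -0.16 in the double mutant, 0.27 in sir3 and 0.39 in arp5. HSP12 (YFL014W; chromosome VI, 107256 to 107585), a small membrane-stabilising heat shock protein, had 864 FPKM in the double mutant, 2484 in sir3, 4909 in arp5 and 797 in BY4741. Both single mutants were higher than BY4741 and the double mutant was at the BY4741 level, -4.14 from the sum. SPG4, a gene of stationary phase, had 8.61 FPKM in the double mutant, 17.0 in sir3, 54.0 in arp5 and 15.8 in BY4741, a difference of -2.61. CTT1, the cytosolic catalase, had 32.6 FPKM in the double mutant, 29.0 in sir3, 73.2 in arp5 and 15.3 in BY4741, a difference of -2.03, with the double mutant near sir3.

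HSP30 and others of the list took another path. HSP30, a plasma membrane heat shock protein, had 29.99 FPKM in the double mutant, 892 in sir3, 161 in arp5 and 630 in BY4741, so that the double mutant was far under arp5, and -2.89 from the sum. YGP1, a secreted glycoprotein of nutrient limitation, had 82.3 FPKM in the double mutant, 524 in sir3, 200 in arp5 and 427 in BY4741, a difference of -1.57. SOD2, the mitochondrial superoxide dismutase, was the 1 stress gene above the sum: it had 902 FPKM in the double mutant, 392 in sir3, 395 in arp5 and 355 in BY4741.

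Storage carbohydrate genes were below the sum in 7 of 16 cases (43.75%) and above it in 0, against 6.8% and 10.3% of all genes. Their median difference was -0.75. Their medians over BY4741 were -0.64 in the double mutant, 0.29 in sir3 and 0.04 in arp5. TSL1, a regulatory subunit of trehalose synthase, had 11.5 FPKM in the double mutant, 65.4 in sir3, 32.7 in arp5 and 31.7 in BY4741, a difference of -2.45. GSY2, a glycogen synthase, had 27.0 FPKM in the double mutant, 84.9 in sir3, 91.9 in arp5 and 61.4 in BY4741, a difference of -2.19. GPH1, glycogen phosphorylase, had 9.87 FPKM in the double mutant, 32.0 in sir3, 37.7 in arp5 and 28.6 in BY4741, a difference of -1.99. In each of these 3 genes the double mutant was lower than all the other genotypes, and no single mutant was lower than BY4741. Leaving out chromosomes III, XI and XII made the median of the list -0.45, and a mean of at least 20 FPKM made it -1.47.

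Genes of heat shock factor, by contrast, lay above the sum or near it. Of 25 chaperone genes 6 were above (24%) and 0 below, against 10.3% and 6.8% of all genes, with a median difference of 0.50. SSA1, a cytosolic Hsp70, had 1480 FPKM in the double mutant, 764 in sir3, 508 in arp5 and 657 in BY4741, a difference of 1.32. AHA1, which stimulates the ATPase of Hsp90, had 355 FPKM in the double mutant, 138 in sir3, 102 in arp5 and 144 in BY4741, a difference of 1.85. HSP42, a small heat shock protein, had 29.9 FPKM in the double mutant, 250 in sir3, 52.4 in arp5 and 291 in BY4741, -0.57 from the sum, with the double mutant lower than arp5 and nearest to the sum. HSP78, a mitochondrial disaggregase, had 8.04 FPKM in the double mutant, 60.4 in sir3, 17.6 in arp5 and 70.9 in BY4741, -0.81 from the sum. The list therefore held both genes above the sum and genes that were low in arp5 and in the double mutant. The chaperone median was 0.22 when the 4 columns were quantile normalised.

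In the purine pathway, 7 of 15 genes were below the sum (46.7%) and 1 above (6.67%), against 6.8% and 10.3% of all genes. The median difference was -0.60. ADE17 (YMR120C; chromosome XIII, 507502 to 509280), which carries out the last steps to inosine monophosphate, had 24.7 FPKM in the double mutant, 835 in sir3, 417 in arp5 and 582 in BY4741. Neither single mutant was 2-fold from BY4741, yet the double mutant was -4.50 from it, and the difference from the sum, -4.54, was the lowest of the genes named by the rule for the largest departures. ADE13, adenylosuccinate lyase, had 92.4 FPKM in the double mutant, 863 in sir3, 527 in arp5 and 755 in BY4741, a difference of -2.69. MTD1, a dehydrogenase of the one-carbon units that purine synthesis uses, had 64.9 FPKM in the double mutant, 311 in sir3, 425 in arp5 and 281 in BY4741, a difference of -2.84. The exception was IMD2, IMP dehydrogenase of the guanine branch, which had 231 FPKM in the double mutant, 169 in sir3, 29.9 in arp5 and 49.6 in BY4741, a difference of 1.16.

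The glycine and serine enzymes that supply one-carbon units split in the same samples. GCV1, a subunit of glycine decarboxylase, had 13.7 FPKM in the double mutant, 222 in sir3, 146 in arp5 and 206 in BY4741, a difference of -3.43. SHM2, the cytosolic serine hydroxymethyltransferase, had 249 FPKM in the double mutant, 1134 in sir3, 1420 in arp5 and 714 in BY4741, a difference of -3.18. SHM1, the mitochondrial form of that enzyme, had 835 FPKM in the double mutant, 175 in sir3, 201 in arp5 and 153 in BY4741, a difference of 1.86. The cytosolic form was low and the mitochondrial form high in the double mutant, and neither single mutant came near either level.

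Amino acid synthesis as a whole leaned below the sum. Of 55 genes, 12 were below (21.8%) and 6 above (10.9%), against 6.8% and 10.3% of all genes. The median difference was -0.50, and the medians over BY4741 were 0.57 in the double mutant, 0.39 in sir3, 0.60 in arp5 and 1.02 for the sum. HIS4, a histidine enzyme with several activities, had 47.6 FPKM in the double mutant, 245 in sir3, 271 in arp5 and 138 in BY4741, a difference of -3.31. Both single mutants were higher than BY4741 and the double mutant lower. ILV6, the regulatory subunit of acetolactate synthase, had 1557 FPKM in the double mutant, 232 in sir3, 396 in arp5 and 201 in BY4741, a difference of 1.77. THR1, homoserine kinase, had 1074 FPKM in the double mutant, 210 in sir3, 317 in arp5 and 212 in BY4741, a difference of 1.77.

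Arginine synthesis was a case where the single mutants were higher and the double mutant did not add them. Of 9 genes counted, 4 were below the sum (44.4%) and 0 above, against 6.8% and 10.3% of all genes. The median difference was -0.61, and the medians over BY4741 were 1.19 in the double mutant, 0.60 in sir3, 1.62 in arp5 and 2.28 for the sum. ARG1, argininosuccinate synthase, had 100.5 FPKM in the double mutant, 100.5 in sir3, 283 in arp5 and 36.9 in BY4741, a difference of -2.91. ARG4, argininosuccinate lyase, had 68.4 FPKM in the double mutant, 153 in sir3, 336 in arp5 and 101 in BY4741, a difference of -2.87. ARG3, ornithine carbamoyltransferase, had 8.38 FPKM in the double mutant, 7.31 in sir3, 25.8 in arp5 and 3.11 in BY4741, a difference of -2.53. In ARG1 and ARG3 the double mutant matched sir3, and in ARG4 it was under BY4741.

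In SNZ1 and SNO1, neighbours on chromosome XIII that make vitamin B6, the double mutant was near sir3 and BY4741, which lay close together. SNZ1 had 20.9 FPKM in the double mutant, 23.8 in sir3, 202 in arp5 and 16.3 in BY4741, a difference of -3.73. SNO1 had 8.81 FPKM in the double mutant, 8.91 in sir3, 77.1 in arp5 and 10.04 in BY4741, a difference of -2.84. The arp5 single mutant was high in both and the double mutant was not. SNZ3, another gene of the family near a chromosome end, had 65.3 FPKM in the double mutant, 7.71 in sir3, 47.2 in arp5 and 18.8 in BY4741, a difference of 1.64. Reads of SNZ3 and its close copy cannot be assigned with certainty.

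By the median, phosphate genes were lower than BY4741 in arp5 and lower still in the double mutant. Of 20 counted, 4 were below the sum (20%) and 1 above (5%), against 6.8% and 10.3% of all genes. The median difference was -0.50, and the medians over BY4741 were -1.41 in the double mutant, 0.08 in sir3 and -1.02 in arp5. PHO84, the high-affinity phosphate transporter, had 135 FPKM in the double mutant, 802 in sir3, 435 in arp5 and 569 in BY4741, a difference of -2.18. SPL2, a regulator of low-affinity phosphate uptake, had 30.1 FPKM in the double mutant, 403 in sir3, 59.0 in arp5 and 303 in BY4741, a difference of -1.36. PHO5, the main secreted acid phosphatase, had 56.5 FPKM in the double mutant, 295 in sir3, 82.6 in arp5 and 189 in BY4741, a difference of -1.18. In these 3 genes sir3 was the highest genotype and the double mutant the lowest. PHO11 and PHO12, near-identical acid phosphatase genes near chromosome ends, differed from the sum by 1.05 and 0.89, so that PHO11 was called above and PHO12 was not.

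In sugar metabolism the genes past 2-fold lay mostly below the sum, while the list medians were near 0. Of 23 glycolysis and fermentation genes, 4 were below the sum (17.4%) and 1 above (4.35%), against 6.8% and 10.3% of all genes. Their median difference of -0.12 was -0.46 with quantile normalization, -0.41 against genes of like level and 0.07 without chromosomes III, XI and XII. TDH1, the minor glyceraldehyde-3-phosphate dehydrogenase, had 632 FPKM in the double mutant, 3404 in sir3, 1942 in arp5 and 2501 in BY4741, a difference of -2.06. PDC1, the main pyruvate decarboxylase, had 10969 FPKM in the double mutant, 5452 in sir3, 3666 in arp5 and 4945 in BY4741, a difference of 1.44. Of 11 hexose transporter genes 3 were below (27.3%) and 0 above, with a median of -0.10, or -0.65 with a mean of at least 20 FPKM. HXT4, one of them, had 11.1 FPKM in the double mutant, 199 in sir3, 35.9 in arp5 and 155 in BY4741, a difference of -1.97. The others below the sum were HXT6 and HXT7, at -1.24 and -1.31. Both were listed at 68.01 FPKM in the double mutant, so they may share reads and count as 1 observation. In 34 genes of the respiratory chain and citrate cycle 2 were below the sum (5.88%) and 0 above. Their median difference was -0.02 as deposited, -0.41 with quantile normalization and -0.25 against genes of like level.

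Several metal genes that were high in arp5 lay within 2-fold of the sum. HMX1, heme oxygenase of the iron response, had 74.8 FPKM in the double mutant, 10.01 in sir3, 91.3 in arp5 and 10.5 in BY4741, -0.22 from the sum. FIT2, a cell wall protein that retains iron carriers, had 423 FPKM in the double mutant, 78.3 in sir3, 555 in arp5 and 86.5 in BY4741, -0.25 from the sum. ZRT1, the zinc transporter, had 289.8 FPKM in the double mutant, 42.1 in sir3, 536 in arp5 and 43.3 in BY4741, -0.84 from the sum. In these 3 genes sir3 was at the BY4741 level and the double mutant nearer to arp5 than to BY4741. FTR1, the iron permease, was not among them: it had 984 FPKM in the double mutant, 164 in sir3, 225 in arp5 and 163 in BY4741, 2.12 above the sum. CYS3, which makes cysteine from cystathionine, had 1283 FPKM in the double mutant, 296 in sir3, 334 in arp5 and 251 in BY4741, 1.70 above the sum. Over the lists, 26 iron genes had a median difference of -0.22 with 1 above (3.85%) and 4 below (15.4%). The 11 zinc genes had -0.41 with 1 above (9.09%) and 2 below (18.2%), and the 28 sulfur genes 0.14 with 3 (10.7%) and 2 (7.14%). Over all genes 10.3% were above and 6.8% below, so the sulfur shares were near those of all genes.

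**Figure D3:**
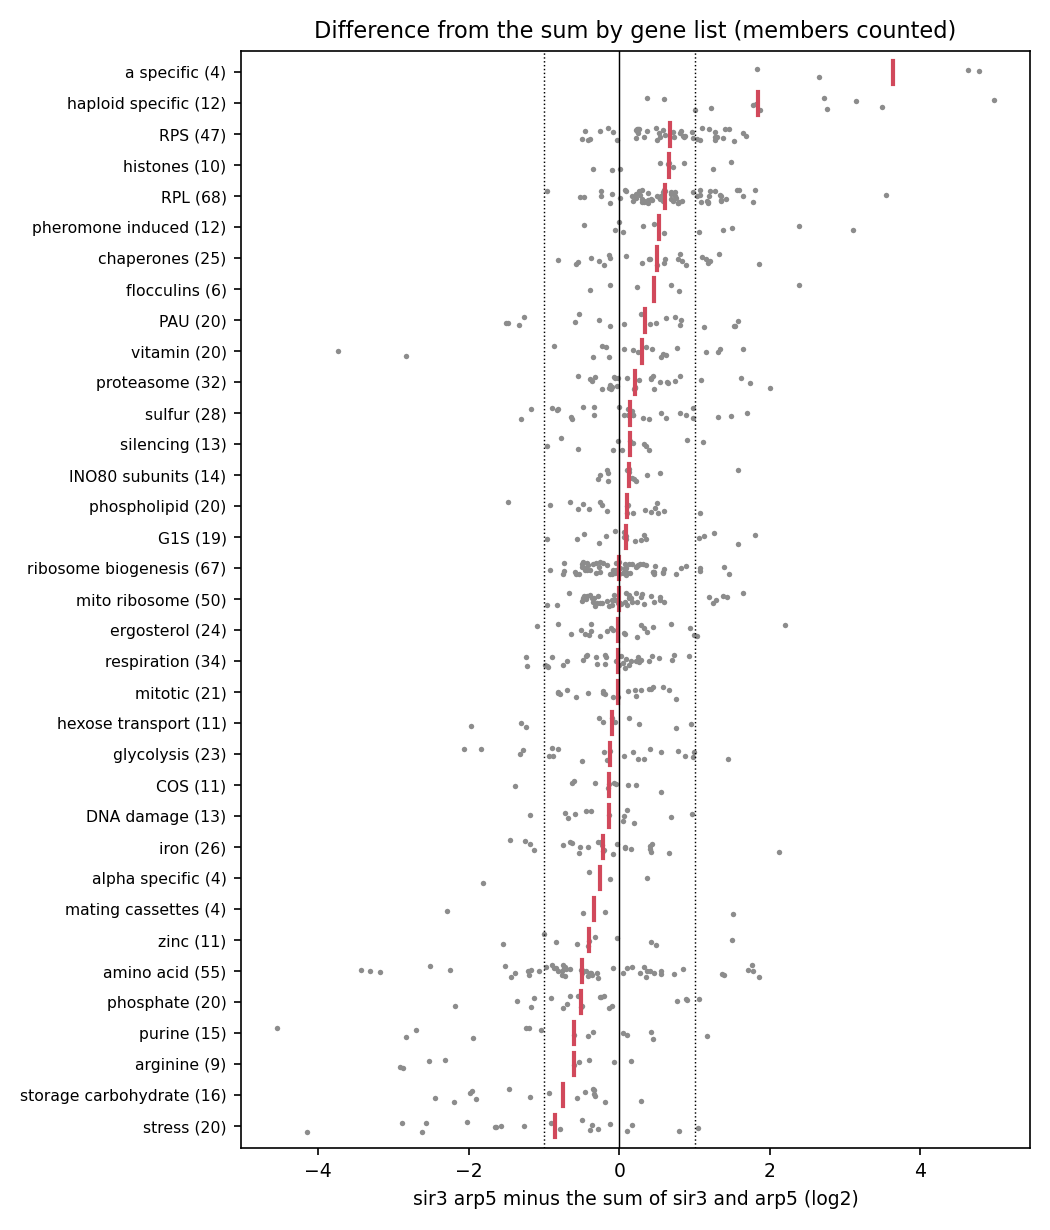
Difference of the double mutant from the sum (log2, x axis) for each member counted in 35 gene lists, ordered by the list median (red bars), with the number of members in parentheses; dotted lines mark 2-fold. The a-specific and haploid-specific lists stand highest, at medians of 3.64 and 1.84, and the stress and storage carbohydrate lists lowest, at -0.85 and -0.75.

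Cytosolic ribosomal protein genes lay above the sum in 14 of 47 cases (29.8%) for the small subunit and 21 of 68 (30.9%) for the large subunit. In either list 0 lay below, and the shares of all genes were 10.3% above and 6.8% below. Their median differences were 0.67 and 0.60, with medians over BY4741 of 0.39 and 0.20 in the double mutant, 0.10 and 0.06 in sir3, and -0.48 and -0.46 in arp5. RPS15, of the small subunit, had 17543 FPKM in the double mutant, 7118 in sir3, 5090 in arp5 and 6616 in BY4741, a difference of 1.68. RPL36B, of the large subunit, had 2522 FPKM in the double mutant, 452 in sir3, 328 in arp5 and 691 in BY4741, a difference of 3.55; many ribosomal protein genes, this one included, have a near-identical copy that shares reads. The direction depended on level and scaling. Genes with a mean of at least 500 FPKM had a median difference of 0.53, with 27.1% above and 3.10% below, and against genes of like level the medians of the small and large subunit lists were 0.13 and 0.06. With the 4 columns quantile normalised they were 0.000576 and 0.0520. Ribosome biogenesis and mitochondrial ribosome genes, less abundant, had medians of 0.00144 and -0.00271 as deposited.

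Of 32 proteasome genes 4 were above the sum and 0 below, a share above it close to the 10.3% of all genes, with a median of 0.20 that became 0.08 against genes of like level and 0.0062 with quantile normalization. PUP1, a catalytic core subunit, had 704 FPKM in the double mutant, 169 in sir3, 204 in arp5 and 198 in BY4741, a difference of 2.01. Among 10 histone genes 2 were above (20%) and 0 below, and the median of 0.66 became 0.14 against genes of like level. The lists for the machinery that was removed had shares above the sum near that of all genes. Of 14 other INO80 subunit genes 1 was above (7.14%), IES6, and 0 below, with a median difference of 0.13. Of 13 other silencing genes 1 was above (7.69%), HST4, and 0 below, with a median of 0.14. Over all genes 10.3% were above and 6.8% below, with a median of 0.0061. IES6, which encodes the partner of Arp5, had 383 FPKM in the double mutant, 169 in sir3, 139 in arp5 and 185 in BY4741.

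Near the chromosome ends, where Sir3 silences, the double mutant was by the median higher than BY4741 and close to the sum, with members on both sides of it. Over 250 genes within 20 kb of an end, the medians over BY4741 were 0.88 in the double mutant, 0.29 in sir3 and 0.37 in arp5, and the median difference from the sum was 0.02, with 37 above (14.8%) and 30 below (12%), against 10.3% and 6.8% of all genes. In the first 5 kb the medians were 1.06 in the double mutant, 0.30 in sir3 and 0.38 in arp5, over 73 genes, with a median difference of 0.26. From 5 to 10 kb, over 56 genes, they were 0.98 in the double mutant, 0.50 in sir3 and 0.40 in arp5, with a median difference of -0.08, 13 genes above the sum (23.2%) and 10 below (17.9%). Beyond these bins the double mutant approached BY4741.

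The COS genes, a subtelomeric family of membrane proteins, had single mutants on opposite sides of BY4741. Over 11 genes the medians over BY4741 were -0.29 in the double mutant, 0.92 in sir3, -0.84 in arp5 and -0.14 for the sum. Of these genes 0 were above the sum and 1 below (9.09%), against 10.3% and 6.8% of all genes. COS1 had 80.0 FPKM in the double mutant, 206 in sir3, 39.6 in arp5 and 98.1 in BY4741, -0.07 from the sum. COS12 (YGL263W; chromosome VII, 2790 to 3932) had 40.7 FPKM in the double mutant, 53.5 in sir3, 2.02 in arp5 and 3.59 in BY4741, 0.22 above the sum. Its double mutant level was near that of sir3. COS9, the member below the sum, had 14.4 FPKM in the double mutant, 53.6 in sir3, 34.2 in arp5 and 46.8 in BY4741, a difference of -1.38. Members of the family are similar in sequence and may share reads. YFR057W, a gene next to an end that was listed at 0 in BY4741, had 10.4 FPKM in the double mutant, 29.6 in sir3 and 1.26 in arp5, so it has no fold over BY4741.

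**Figure D4:**
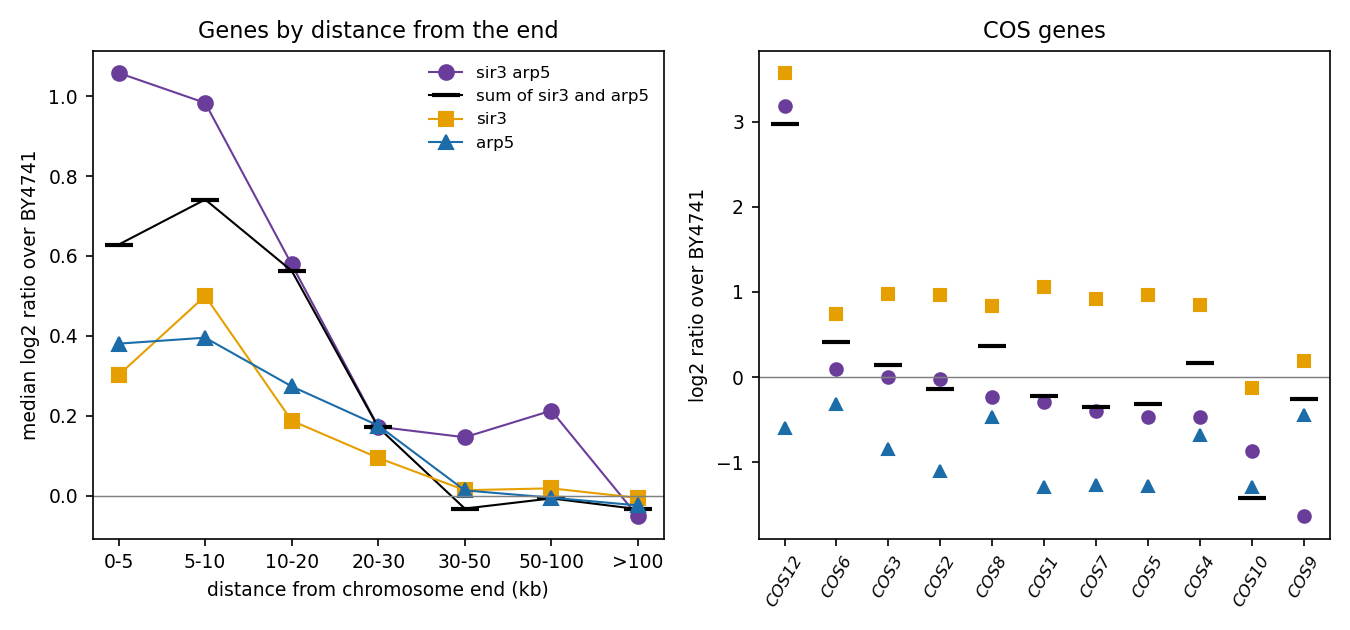
Left, median log2 ratio over BY4741 by distance from the chromosome end (kb) for sir3 arp5, the sum, sir3 and arp5; right, the log2 ratio over BY4741 of each of 11 COS genes in the same strains and for the sum. The double mutant is highest in the bins within 10 kb, at 1.06 and 0.98, and in most COS genes it lies between sir3 and arp5 and near the sum.

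Departures from the sum were unevenly placed in the genome. On chromosome III 59 of 161 genes (36.6%) were above the sum and 8 (4.97%) below, against 10.3% and 6.8% of all genes. The median difference there was 0.49. Most of the excess lay in the 62 genes from MAT to the right end (chromosome III, 197621 to 314981). There 41 were above (66.1%) and 2 below (3.23%), and the median difference was 1.48. The 99 genes before MAT had 18 above (18.2%) and 6 below (6.06%) and a median of 0.10. In the part from MAT to the right end the medians over BY4741 were 0.93 in the double mutant, 0.11 in sir3 and -0.75 in arp5. Neighbouring genes on this stretch were low together in arp5 and not in the double mutant. Chromosome XI had 17 above (5.3%) and 45 below (14.0%) of 321 genes and a median difference of -0.45. Its medians over BY4741 were -0.08 in the double mutant and 0.38 in arp5. Chromosome XII had 31 above (5.94%) and 74 below (14.2%) of 522 and a median of -0.37, with 0.03 in the double mutant and 0.41 in arp5. Without these 3 chromosomes, 511 of 4997 genes (10.2%) were above and 281 (5.62%) below. The genes that remained were not even either. Chromosome I had 24 above (23.8%) and 4 below (3.96%) of 101 genes and a median difference of 0.22. Its medians over BY4741 were 0.46 in the double mutant, 0.007 in sir3 and 0.002 in arp5. CYS3, SSA1 and YAL042C-A lie on chromosome I. The part of any change in chromosome copies in these results was not tested.

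**Figure D5:**
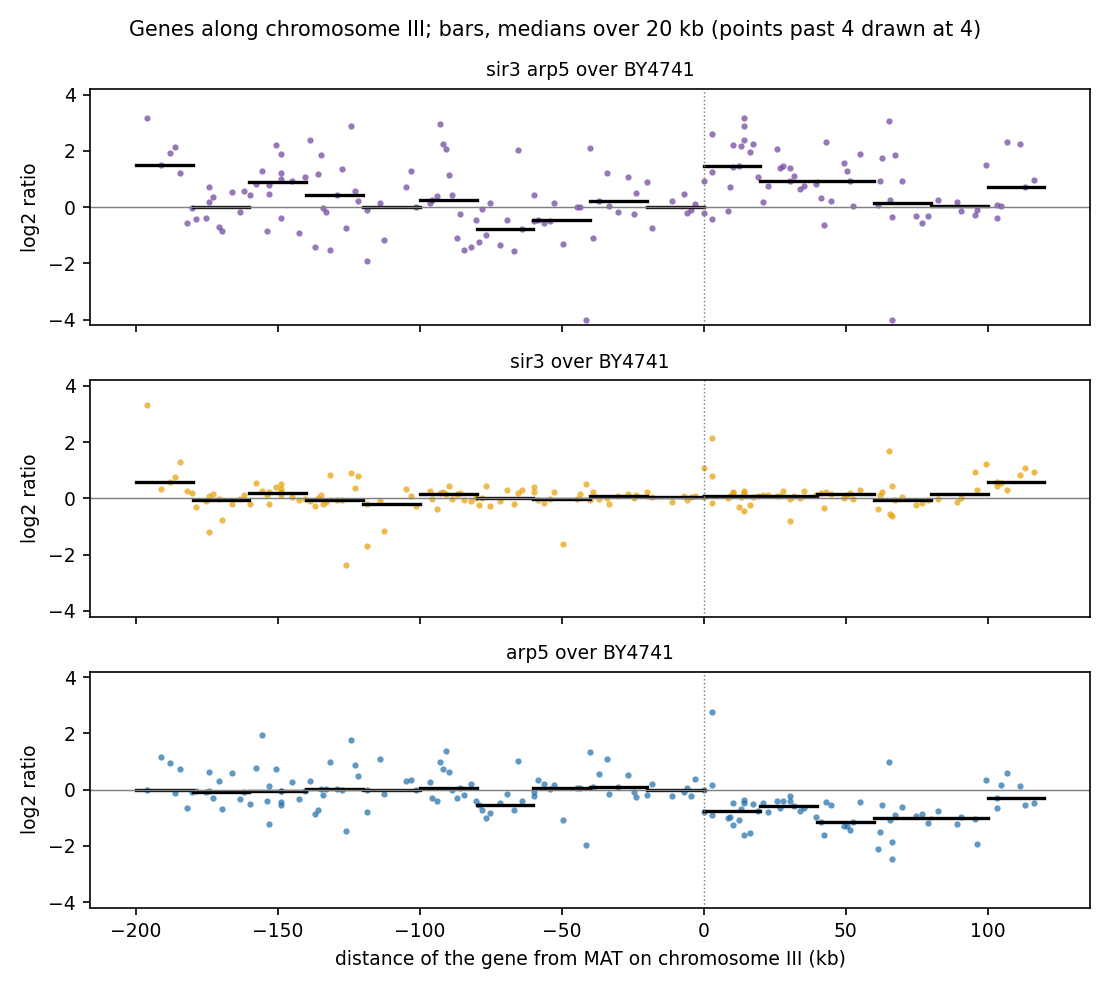
Genes counted on chromosome III by distance from MAT (kb, x axis) and log2 ratio over BY4741 (y axis) in sir3 arp5, sir3 and arp5, with black bars for medians over 20 kb; points past 4 in either direction are drawn at 4. To the right of MAT most arp5 points lie below 0 and most sir3 arp5 points above it, and sir3 medians lie between -0.20 and 0.18 except in the outermost 20 kb, at 0.57 and 0.58.

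Several of the largest single differences lay on that stretch or in overlapping genes. YCR049C had 111 FPKM in the double mutant, 8.11 in sir3, 3.02 in arp5 and 11.4 in BY4741, and its difference of 5.24 was the highest of all genes counted; it shares its locus in the table with ARE1, so with an unstranded kit their reads cannot be separated. YCR051W had 649 FPKM in the double mutant, 143 in sir3, 57.2 in arp5 and 168 in BY4741, a difference of 3.72. VAM10, YOL150C, YAL042C-A, YGR164W, YEL018C-A and YOR325W, between 3.72 and 4.46 above the sum, were further members of the 12 largest, with STE2, BAR1, FUS3 and TAR1 at 4.16. Except for YGR164W, these 6 share their locus in the table with another gene. VAM10 was at 14.5 FPKM in the double mutant and at 7.19 in BY4741, where a sir3 value of 0.00452 makes the sum, so the difference rests on a value near 0 in sir3. YOR325W likewise had 0.00236 FPKM in sir3.

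Below the sum, the 12 largest were ADE17, YLR012C, RGI1, HSP12, RTC2, SNZ1, YCR087C-A, YER067C-A, ARO5, YER066C-A, CYC7 and GCV1. RGI1, a gene induced by respiratory growth, had 13.6 FPKM in the double mutant, 314 in sir3, 287 in arp5 and 341 in BY4741, a difference of -4.19. RGI1, YER067C-A and YER066C-A are reported at one locus (chromosome V, 291703 to 292563), so they count as 1 observation. CYC7, the minor cytochrome c, had 19.8 FPKM in the double mutant, 158 in sir3, 173 in arp5 and 115 in BY4741, a difference of -3.53. RTC2, a vacuolar transporter of basic amino acids, had 4.13 FPKM in the double mutant, 24.0 in sir3, 38.0 in arp5 and 12.1 in BY4741, a difference of -3.86. YCR087C-A had 0.00392 FPKM in the double mutant and YLR012C 0.843, so these rest on very low values.

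Genes with a value of exactly 0 were left out of the 12 largest differences each way. YFR057W, HMLALPHA1 and HMLALPHA2, which hold a 0, were named above because they were among the set names. Of 6001 genes counted 23 were listed at 0 in at least 1 of the 4 columns. HYP2, which encodes the translation factor eIF5A and is used by every cell, was listed at 0 in the double mutant against 973 FPKM in sir3, 496 in arp5 and 681 in BY4741, so a listed 0 in this table need not mean that a gene was off. In genes that share a locus with another gene, 1104 of those counted, the authors' values may split or merge reads. They made up 30.3% of the genes above the sum, 22.8% of those below and 16.6% of those within.

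Short genes departed more often than long ones. From 300 to 450 bp 20.5% of genes were above the sum and 11.4% below, with an SD over genes of 1.17, and at 3600 bp or more 2.41% and 2.07%, with an SD of 0.56. Median length was 786 bp above the sum, 954 bp below and 1245 bp within.

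The deposited data that the difference does not use were then read for the same genes. In the ino80 deletion strain, which lacks the ATPase of the complex, against its own wild type CY337, the median log2 ratio was 0.00 for the 618 genes above the sum, 0.16 for the 408 below and -0.02 for the 4975 within. More than 2-fold higher in ino80 were 11.97% of the genes above, 17.4% of those below and 5.25% of those within, and lower were 5.99%, 7.84% and 4.02%. So genes off the sum on either side also differed more often in ino80 than genes on it and in both directions. The arp5 column enters the difference, however, and ino80 and arp5 changes overlapped. Of 406 genes higher in ino80, 140 were higher in arp5, and of 269 lower in ino80, 73 were lower in arp5. Over all genes 5.73% were higher in arp5 and 3.47% lower. In 17.96% of genes above the sum, 34.3% below and 8.54% within, sir3 or arp5 was past 2-fold from BY4741. The ino80 shares are thus no independent check of the classes. Genes off the sum were also shorter, and the parts of length and of the arp5 overlap in these shares were not tested.

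Chromatin was read from ChIP-seq, as the authors' log2 ratio of precipitate over input in windows of 50 bp, for 514 genes above, 356 below and 4673 within. H3K79me3, a histone mark of transcribed chromatin that Dot1 makes and that Sir3 avoids, had a median over the gene body in BY4741 of 0.06 in genes above the sum, -0.48 in genes below and 0.38 in genes within. Among genes of at least 1000 bp the order was the same, at 0.44 above, -0.11 below and 0.62 within. The arp5 minus BY4741 difference in this mark had medians of 0.08 above, 0.30 below and -0.07 within, and among genes of at least 1000 bp -0.10 above, 0.19 below and -0.17 within. Genes below the sum thus had the least H3K79me3 in BY4741 and the most positive difference in arp5. A low starting level and a positive difference share the BY4741 library. The arp5 ChIP libraries carry a wild-type genotype in a label field, and their titles were followed.

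H3K4me3, a mark of active promoters and gene starts, had BY4741 medians of 0.89 above, -0.64 below and -0.11 within. The mark sits at the start of genes, so a median over the gene body varies with gene length: among genes of at least 1000 bp the medians were 0.18 above, -1.07 below and -1.16 within. The classes also differed in RNA level, with a median of the mean FPKM of 71.8 above, 30.1 below and 34.7 within. The part of level in the medians of either histone mark was not tested. Arp5 itself was near the start of most genes of every class. A significant Arp5 window, by the authors' call in strain CY1838, lay within 500 bp before 91.2% of the genes above the sum, 93.3% of those below and 92.9% of those within.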

How the data were processed

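Per the submitters' processing notes, RNA reads were aligned with TopHat2 2.0.8 and Bowtie to sacCer3 and FPKM made with Cuffdiff 2.0.2; the authors deposited 1 FPKM column per genotype over 6664 genes. Duplicates were pooled; which libraries entered each column, and how ChIP values were scaled and called, are points not given in the sources used here. ChIP values were deposited as log2 ratios of precipitate over input (Bowtie 0.12.9). Python 3.11.15, pandas 2.3.3 and numpy 2.4.6 computed log2 ratios of FPKM + 1, the sum and the difference; a planned limma test needed replicate columns and was not run. The calculation was tested on simulated data.

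The rule for members and the 35 gene lists were chosen with earlier results of these data known. Named genes were the 12 largest differences each way, up to 3 highest and 3 lowest of each list, and set names such as MFA1 and COS12; other list members and genes were named after their values were seen. The neighbours of the deleted genes and genes listed at 0 were left out of the largest. Symbols came from RefSeq and matched 5989 genes; ARG5,6, ADE5,7, MATA1, DAN2 and DAN3 were not matched. H3K79me3 and H3K4me3 were medians of windows over the gene. Arp5 was scored in 500 bp before it. Alternatives changed the pseudocount, filters, scaling, matching and the scale of the sum. Promoter sequences and motifs were not analysed here.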

Additional observations from a re-analysis of the deposited data

How the results depend on the processing

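No paired analysis was possible because each genotype reached the table as 1 pooled column with no replicate number, and leaving out a replicate was not possible either; the motif comparison was not run. Over the alternatives the genes above the sum numbered from 245 to 728 and those below from 189 to 509. With a mean of at least 20 FPKM 259 genes were below, the median difference was 0.0511, and the nearest outcome was sir3 for 74 genes, arp5 for 116, the sum for 121 and BY4741 for 46. With at least 1000 bp 245 were above and 189 below, the median was -0.0211, and the nearest outcomes numbered 102 for sir3, 94 for arp5, 88 for the sum and 29 for BY4741. With a pseudocount of 5, arp5 was nearest for 136, the sum for 119 and BY4741 for 42. Without a length filter BY4741 was nearest for 133. The median difference was -0.0257 with the columns scaled to the same median, -0.0226 with quantile normalization and 0.0408 with the changes added on the linear scale. In alternatives chosen after seeing the data it was 0.0508 without chromosomes III, XI and XII, and -0.0243 without genes that share a locus. All of these medians are within 0.1 of 0. Stricter filters test fewer genes; for the other settings the cause was not tested. With 300 bp before the gene, 89.7% of genes within the sum had an Arp5 window. Some list medians shifted by more than 1.5 times: stress genes to -1.57 and pheromone-induced genes to 0.05 with a mean of at least 20 FPKM, arginine genes to -1.42 and phosphate genes to -0.25 with at least 1000 bp, and on the linear scale COS genes to -0.79, haploid-specific genes to 2.91 and arginine genes to -0.34. Of 35 list medians 26 stayed within their interval under every alternative run, and of 445 values 12 moved. That interval was a 95% interval from the ranked members of the list, or their full range in the shortest lists. It takes genes as independent and measures no error between samples. It can be wide: the stress interval, -1.63 to -0.36, held the -1.57 above. The counts are therefore no measure of how firm a median is. Of 2303 values of 223 named genes 2217 kept their side of 2-fold. YCR087C-A turned to 0.0056 on the linear scale. Depth is unknown, and no column has a replicate, so no error can be set on any difference.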

Other observations

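Seripauperin and related cell wall mannoprotein genes (PAU, TIR and DAN), many of them near chromosome ends, were often high in the double mutant. Past 2-fold from BY4741, 10 of 20 were higher and 0 lower, against 15.7% and 9.85% of all genes. Among all 250 genes within 20 kb of a chromosome end, 114 were higher and 19 lower, so a high level was not particular to this family. The filter can also admit a gene through the double mutant column alone, and how many entered in that way was not counted. Of the 20, 4 were above the sum (20%) and 4 below (20%), against 10.3% and 6.8% of all genes. TIR2 had 110 FPKM in the double mutant, 11.3 in sir3, 39.6 in arp5 and 12.4 in BY4741, 1.58 above the sum. PAU17 had 8.21 FPKM in the double mutant, 20.2 in sir3, 18.1 in arp5 and 14.5 in BY4741, -1.50 from it. Many PAU genes are near-identical, so reads may be shared. Of 19 genes of the G1/S wave 5 were above the sum (26.3%) and 0 below, with a median difference of 0.09. PCL1, a G1 cyclin, had 79.02 FPKM in the double mutant, 12.9 in sir3, 40.7 in arp5 and 24.3 in BY4741, a difference of 1.81. Of 21 G2/M and M/G1 genes 0 were above or below the sum, and the median difference was -0.02. Ergosterol genes had a median of -0.01, and ERG2, a sterol isomerase, was the highest, with 3309 FPKM in the double mutant, 750 in sir3, 580 in arp5 and 602 in BY4741, 2.19 above the sum.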
